A study of Arabidopsis with 22 samples.

Results

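The 10 genes described here are fast-responding stress genes of Arabidopsis that fell strongly in the morning in the clock mutant *lux-1*. They are 6 ethylene response factors (ERFs), the C2H2 zinc-finger genes *ZAT10* and *ZAT12*, the ACC synthase gene *ACS6*, and AT4G29780, to which the tables used give no name. They were chosen by locus from earlier results on these same data, for their low level in *lux-1* against Col-0 at ZT1, so that difference is described below without a test. Each of the 10 had 1 row among 25218 transcripts, and 10 of 10 passed the filter on low values that left 21666 genes for testing.

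ERF proteins carry an AP2/ERF domain that binds GCC-type DNA elements, and many genes of subfamilies IX and X are transcribed within minutes of wounding, chilling, touch, pathogen elicitors or reactive oxygen. Mitogen-activated protein kinases act upstream of several of them. ZAT10 and ZAT12 belong to a family of zinc-finger proteins with an EAR repression motif, and ACC synthase makes the direct precursor of ethylene.

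RNA was sequenced from 25-day-old plants grown in 12 h light and 12 h dark and collected at ZT1 or ZT13, which are 1 and 13 h after lights on. The genotypes, all in the Col-0 background, were the wild type, *lux-1*, *acd6-1* and the double mutant *acd6-1lux-1*. *lux-1* has an early nonsense mutation in *LUX*, a DNA-binding component of the evening complex of the clock, and *acd6-1* is a gain-of-function allele with constitutive defense and small plants. The double mutant came from an F2 of the cross of the single mutants, and each genotype is represented by 1 line. Of 8 groups, 6 had 3 libraries, and at ZT13 the double mutant and *acd6-1* had 2 each, which makes 22. Nothing says how many plants a library holds, so p-values measure the spread between these libraries. Samples of plants mix cell types, so fewer cells of a type and less RNA per cell cannot be told apart.

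Values are RPKM as deposited, which are read counts scaled by length, here coding length, and by the mapped reads of the library. Mapped reads were between 10306552 and 16224975 per library. The percent of reads mapped was 79.8 to 81.6% in 21 libraries and 60.5% in *acd6-1lux-1* ZT1 replicate 3. Differences between groups for the 10 genes that rest on this library are therefore also given without it. Some of these values were added after seeing the data. Correlations between genes are given only with this library included. *LUX* transcript was 2.22 to 4.21 RPKM at ZT1 and 6.10 to 8.17 RPKM at ZT13 in the libraries with wild-type *LUX*. In the *lux-1* lines it was 4.43 to 7.71 RPKM at ZT1 and 65.3 to 81.0 RPKM at ZT13. A nonsense mutation need not lower its transcript, and the paper reports higher *LUX* expression in *lux-1*. The ranges were separate at both times, narrowly so at ZT1, and the level does not identify the mutation itself. Of 5 root markers, *PRP3*, *COBL9* and *CASP1* did not exceed 0.783 RPKM in any library, *NRT2.1* did not exceed 1.74 RPKM and *PYK10* was 52.3 to 233 RPKM. The summed level of 5 floral markers was 2.01 to 10.7 RPKM in the groups with wild-type *LUX*, 5.05 to 26.3 RPKM in the *lux-1* lines at ZT1 and 16.5 to 44.6 RPKM in those at ZT13. The summed level of 5 rosette leaf markers at ZT1 was 64992 to 69598 RPKM in Col-0, 46920 to 65364 in *lux-1*, 25961 to 29644 in *acd6-1*, and 28651 to 37857 in *acd6-1lux-1*. The part of tissue composition in the results below was not tested.

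The genes were chosen for a low level in *lux-1* at ZT1 against Col-0, so the order of the group means is a description. The *lux-1* plants at ZT1 were the lowest of the 8 groups for 10 of 10 genes, and *acd6-1lux-1* at ZT1 was next for 9 of 10, with *ZAT12* as the exception. Without *acd6-1lux-1* ZT1 replicate 3 it was next for 10 of 10. The highest mean was in *acd6-1lux-1* at ZT13 for 6 genes, in *acd6-1* at ZT13 for 2 and in *lux-1* at ZT13 for 2. *ZAT10* had the highest mean of the 10 in each of the 8 groups, from 34.7 RPKM in *lux-1* at ZT1 to 756 RPKM in *acd6-1lux-1* at ZT13.

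**Figure D1:**
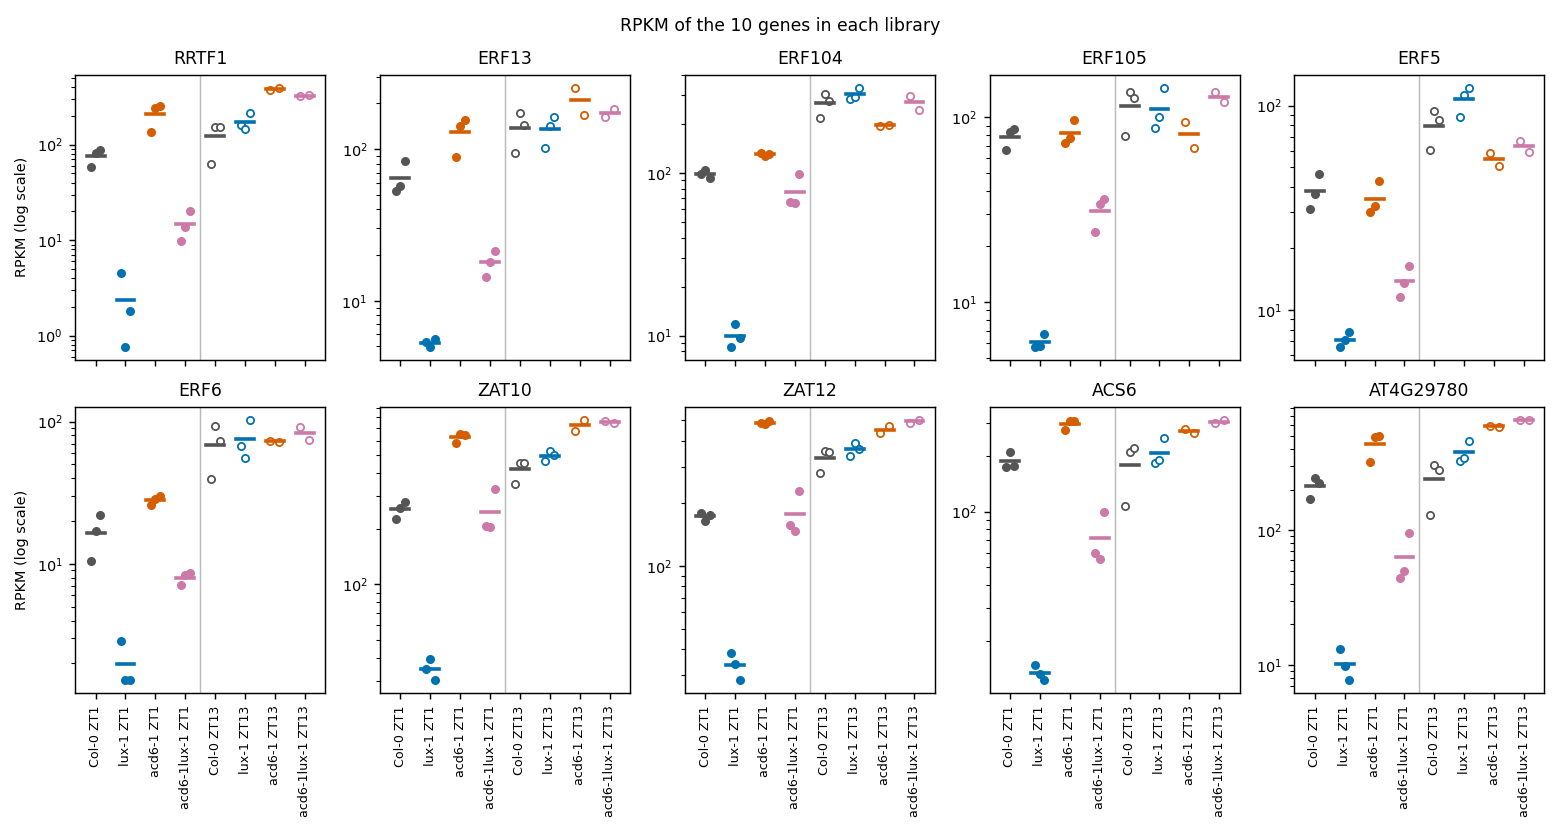
RPKM of each of the 10 genes in the 22 libraries, on a log axis, with 1 panel per gene. Points are libraries, bars are group means, filled points are ZT1 and open points ZT13. In every panel the 3 *lux-1* libraries at ZT1, which were used to choose the genes, lie below the other 19.

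*RRTF1* (AT4G34410), an ERF of subfamily X named for its response to redox signals, had the widest range. Its level at ZT1 was 58.7, 82.0 and 87.9 RPKM in Col-0, 4.50, 0.758 and 1.81 in *lux-1*, 134, 241 and 257 in *acd6-1*, and 9.90, 13.8 and 20.3 in *acd6-1lux-1*. These 4 groups did not overlap. The *lux-1* values rest on 46, 8 and 18 reads and spanned 5.94-fold. In the evening the level was 62.0, 152 and 152 RPKM in Col-0, 161, 146 and 215 in *lux-1*, 375 and 396 in *acd6-1*, and 319 and 331 in *acd6-1lux-1*. Col-0 and *lux-1* overlapped here, and the 4 libraries with *acd6-1* lay above both.

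*ERF13* (AT2G44840), of subfamily IX, had ZT1 levels of 53.1, 57.3 and 83.4 RPKM in Col-0, 5.34, 4.94 and 5.61 in *lux-1*, 88.6, 143 and 155 in *acd6-1*, and 14.3, 18.1 and 21.2 in *acd6-1lux-1*. The order of the 4 morning groups was that of *RRTF1*, again without overlap. Its ZT13 levels were 93.4, 173 and 144 RPKM in Col-0, 102, 143 and 162 in *lux-1*, 254 and 168 in *acd6-1*, and 163 and 184 in *acd6-1lux-1*. Each evening group overlapped its neighbor in the order of means.

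*ERF104* (AT5G61600), a substrate of the kinase MPK6, was the member whose double-mutant level stayed closest to that of *acd6-1*. At ZT1 it was 98.1, 104 and 93.3 RPKM in Col-0, 8.49, 11.7 and 9.63 in *lux-1*, 132, 127 and 131 in *acd6-1*, and 66.6, 65.1 and 98.2 in *acd6-1lux-1*. The highest double-mutant library, replicate 3, reached into the Col-0 range, and the other 2 lay below it. In the evening *ERF104* was 219, 306 and 279 RPKM in Col-0, 285, 291 and 335 in *lux-1*, 194 and 198 in *acd6-1*, and 299 and 245 in *acd6-1lux-1*, so that *acd6-1* was the lowest evening group.

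The close relative *ERF105* (AT5G51190), known for its role in cold responses, was 66.5, 83.7 and 86.2 RPKM in Col-0, 5.69, 5.74 and 6.72 in *lux-1*, 72.6, 77.2 and 96.9 in *acd6-1*, and 23.9, 33.9 and 36.1 in *acd6-1lux-1* at ZT1. Col-0 and *acd6-1* overlapped, and both lines with *lux-1* lay below them. Its ZT13 levels were 79.2, 137 and 128 RPKM in Col-0, 87.4, 101 and 145 in *lux-1*, 94.4 and 68.2 in *acd6-1*, and 138 and 121 in *acd6-1lux-1*. The evening groups overlapped except that the *acd6-1lux-1* libraries lay above those of *acd6-1*.

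*ERF5* (AT5G47230) and *ERF6* (AT4G17490) are paralogs that act in defense and in growth restriction under osmotic stress. At ZT1, *ERF5* was 31.1, 36.9 and 46.0 RPKM in Col-0, 6.56, 7.12 and 7.75 in *lux-1*, 30.2, 32.4 and 42.6 in *acd6-1*, and 11.5, 13.6 and 16.4 in *acd6-1lux-1*. The ZT13 levels of *ERF5* were 60.4, 93.7 and 84.6 RPKM in Col-0, 88.3, 113 and 123 in *lux-1*, 58.6 and 50.6 in *acd6-1*, and 67.2 and 58.9 in *acd6-1lux-1*. Unlike in the morning, the 2 lowest evening groups were those with *acd6-1*. *ERF6* was the weakest of the 10 in the morning, with 10.5, 17.2 and 22.2 RPKM in Col-0, 2.88, 1.53 and 1.53 in *lux-1*, 25.9, 28.4 and 29.9 in *acd6-1*, and 7.08, 8.40 and 8.57 in *acd6-1lux-1*. In the evening *ERF6* was 39.7, 93.4 and 72.7 RPKM in Col-0, 67.4, 55.4 and 102 in *lux-1*, 73.6 and 72.2 in *acd6-1*, and 92.0 and 74.3 in *acd6-1lux-1*. Its 4 morning groups did not overlap, while among the evening groups only *acd6-1* and *acd6-1lux-1* did not.

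The zinc-finger genes are transcriptional regulators of salt, cold, light and oxidative stress responses. *ZAT10* (AT1G27730), also known as *STZ*, was 225, 258 and 279 RPKM in Col-0, 34.5, 39.1 and 30.3 in *lux-1*, 584, 651 and 643 in *acd6-1*, and 206, 203 and 327 in *acd6-1lux-1* at ZT1. At ZT13 it was 349.5, 455 and 456 RPKM in Col-0, 467, 524 and 500.5 in *lux-1*, 678 and 774 in *acd6-1*, and 768 and 745 in *acd6-1lux-1*. The double mutant overlapped Col-0 in the morning, through replicate 3 alone, and *acd6-1* in the evening. *ZAT12* (AT5G59820), also known as *RHL41*, was 179, 165 and 175 RPKM in Col-0, 38.3, 33.9 and 28.4 in *lux-1*, 483, 478 and 494 in *acd6-1*, and 157, 147 and 230.0 in *acd6-1lux-1* at ZT1. At ZT13 it was 279.8, 355 and 353 RPKM in Col-0, 338, 390.1 and 365 in *lux-1*, 433 and 469 in *acd6-1*, and 488 and 501 in *acd6-1lux-1*. As for *ZAT10*, replicate 3 of the double mutant lay above the Col-0 libraries in the morning and the other 2 lay below them.

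*ACS6* (AT4G11280), whose protein is stabilized by MPK3 and MPK6, was 174, 209 and 177 RPKM in Col-0, 14.7, 13.2 and 12.3 in *lux-1*, 276, 309 and 309 in *acd6-1*, and 59.9, 55.7 and 99.96 in *acd6-1lux-1* at ZT1. Its ZT13 levels were 107, 209 and 221 RPKM in Col-0, 183, 189.5 and 251 in *lux-1*, 279 and 267 in *acd6-1*, and 302 and 312 in *acd6-1lux-1*. The 4 morning groups were separate, and in the evening the 4 libraries with *acd6-1* lay above the other 6.

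AT4G29780 was 170.4, 243 and 224 RPKM in Col-0, 13.1, 9.76 and 7.77 in *lux-1*, 322, 491 and 496 in *acd6-1*, and 44.3, 49.5 and 94.4 in *acd6-1lux-1* at ZT1. At ZT13 it was 129, 303 and 281 RPKM in Col-0, 328, 345 and 462 in *lux-1*, 591 and 585 in *acd6-1*, and 654 and 653 in *acd6-1lux-1*. It was the only one of the 10 whose 4 evening groups were also separate from each other.

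In *lux-1* against Col-0 at ZT1, the difference that chose the genes, mean levels in *lux-1* were 3.10% (*RRTF1*) to 19.4% (*ZAT12*) of those in Col-0. On the scale of log2(RPKM + 1), which understates the change of weakly expressed genes, the differences ran from -4.66 for *RRTF1* to -2.24 for *ERF5* with a median of -3.27, beside a median of 0.08 over all genes tested. The choice of members had no threshold, and 53 genes outside the 10 had a more negative difference than *ERF5*. The libraries did not overlap for 10 of 10 genes, as for 9.84% of all genes in that direction.

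The *acd6-1* background holds libraries that the choice did not use, and there the question is whether *lux-1* lowers the same genes when defense is active. At ZT1, 10 of 10 genes were lower in *acd6-1lux-1* than in *acd6-1*, at 6.95% (*RRTF1*) to 59.0% (*ERF104*) of the *acd6-1* level. Each passed an adjusted p of 0.1 by limma with Benjamini-Hochberg adjustment over the 21666 genes, a threshold that 10.9% of all genes passed in this direction. The results for *RRTF1* and *ERF13* here were known when the genes were chosen. The median difference was -1.58 on the log2 scale, beside 0.09 over all genes, and the libraries did not overlap for 10 of 10 genes, as for 13.1% of all genes in that direction.

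Among the ERFs, *RRTF1* fell by 3.76 on the log2 scale (SE 0.38, adjusted p = 5e-06 by limma) and *ERF13* by 2.75 (SE 0.25, adjusted p = 1.5e-06). The other subfamily IX genes fell less, with *ERF6* at -1.69 (SE 0.28), *ERF105* at -1.38 (SE 0.22), *ERF5* at -1.28 (SE 0.18) and *ERF104* at -0.78 (SE 0.15), and with limma adjusted p values from 7.7e-05 to 0.00099. *ZAT10* and *ZAT12* fell by 1.38 and 1.47 (SE 0.15 and 0.14, limma adjusted p = 9.5e-06 and 1.8e-06). *ACS6* fell by 2.08 and AT4G29780 by 2.83 (SE 0.23 and 0.30, limma adjusted p = 7.9e-06 and 7.2e-06). The difference was smaller in size than that of *lux-1* against Col-0 for 10 of 10 genes, but the latter was the basis of the choice, and the 2 were not tested against each other.

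*acd6-1lux-1* ZT1 replicate 3, the library with 60.5% of its reads mapped, had the highest value of its group for 10 of 10 genes. Chloroplast transcripts took 0.661% of its mapped reads, beside 0.0128 to 0.0239% in the other 21 libraries, and the part of this in the values was not tested. Without it the 10 genes again passed, with differences from -4.01 to -0.97 and a median of -1.70. No single library of the 22 was needed for any of these 10 calls.

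The double mutant can also be set against Col-0 at ZT1, whose libraries were used to choose the genes, so these values are a description. It was lower without overlap for 7 genes, as for 15.7% of all genes, at 19.2% (*RRTF1*) to 48.3% (*ERF6*) of the Col-0 mean. For *ERF104*, *ZAT10* and *ZAT12* the libraries overlapped through replicate 3 alone, with means of 77.9, 96.6 and 103% of Col-0. Without replicate 3, 10 of 10 genes were lower without overlap, as were 17% of all genes, and these 3 means were 66.9, 80.5 and 87.8% of Col-0.

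In *lux-1* against Col-0 at ZT13, 0 of 10 genes passed an adjusted p of 0.1 by limma, against 3.93% of all genes in either direction, and edgeR and DESeq2 on whole reads recovered from the RPKM values also passed 0. At an unadjusted p under 0.05, which 14.1% of all genes had, limma gave 2 genes, *ERF5* at 0.45 (95% interval 0.07 to 0.82, limma adjusted p = 0.25) and AT4G29780 at 0.75 (0.11 to 1.39, limma adjusted p = 0.26). Mean levels in *lux-1* were 96.7 to 159% of those in Col-0. The 95% intervals of the 10 differences lay between -0.52 and 1.41 on the log2 scale. The libraries did not overlap for 2 genes, *ZAT10* and AT4G29780, as for 19.1% of all genes in either direction.

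In *acd6-1lux-1* against *acd6-1* at ZT13, 0 of 10 genes passed by limma, edgeR or DESeq2, beside 1.50% of all genes by limma. *ERF104* at 0.47 (95% interval 0.09 to 0.84) and *ERF105* at 0.68 (0.12 to 1.23) had an unadjusted p under 0.05, as did 10% of all genes, with limma adjusted p values of 0.34 and 0.35. The means were 82.0 to 159% of those in *acd6-1*, and with 2 libraries in each group the 95% intervals reached from -1.24 to 1.23. The libraries of 8 genes did not overlap, as for 41.4% of all genes in either direction with so few libraries. The evening effect of *lux-1* was not shown to differ between the backgrounds for any of the 10. By limma, edgeR and DESeq2 0 passed the test of that difference, against 0.586% of all genes by limma. In limma *ERF105* (0.72) had an unadjusted p under 0.05, as 11.2% of all genes did.

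The change of the *lux-1* effect between morning and evening was tested within the *acd6-1* background. It passed for 10 of 10 genes, in the direction of a lower value in the morning, as it did for 3.12% of all genes. The differences of the 2 effects ran from -3.51 for *RRTF1* (SE 0.61, limma adjusted p = 0.0027) to -1.24 for *ERF104* (SE 0.23, limma adjusted p = 0.0045), with a median of -1.96. Without *acd6-1lux-1* ZT1 replicate 3 the 10 passed again, with -3.76 to -1.43. This test uses the same morning libraries as the comparison at ZT1 and is not independent of it. Without *acd6-1lux-1* ZT13 replicate 1, *ERF6* no longer passed (limma adjusted p = 0.11).

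**Figure D2:**
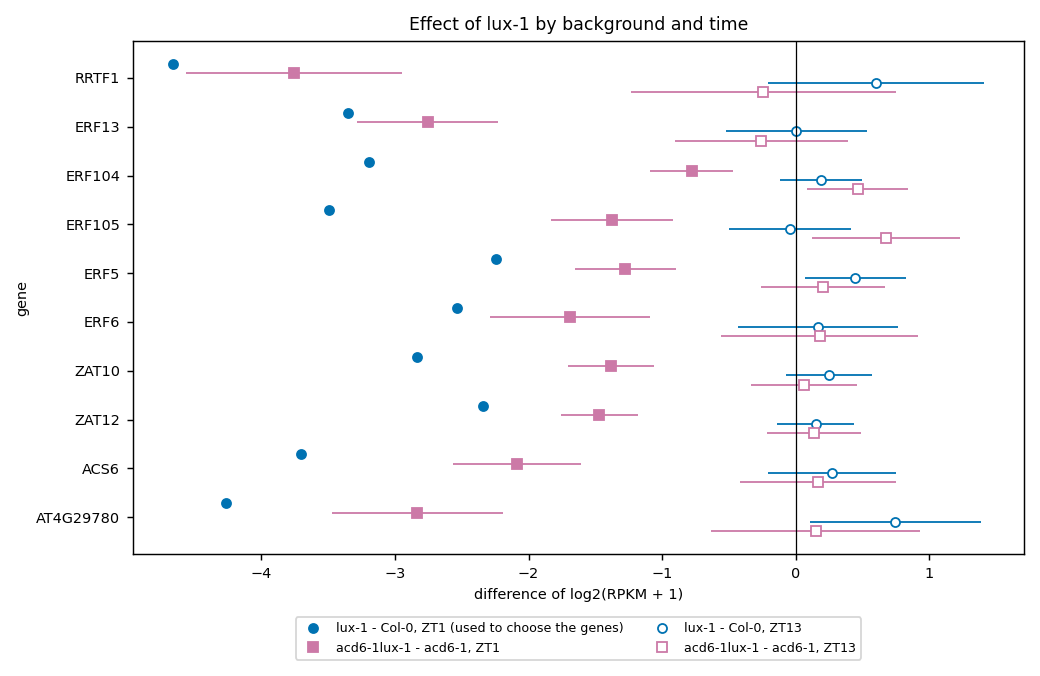
Differences of log2(RPKM + 1) between lines with and without *lux-1*, per gene, in the Col-0 background (circles) and the *acd6-1* background (squares), at ZT1 (filled) and ZT13 (open). Lines are 95% intervals from limma, and the values that chose the genes have none. Filled squares lie between -3.76 and -0.78, and the open symbols between -0.26 and 0.75.

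Set against the time of day, the same values show how far each genotype moved between morning and evening. In *acd6-1lux-1*, 10 of 10 genes were higher at ZT13 than at ZT1, from 2.78-fold (*ZAT12*) to 22.2-fold (*RRTF1*), and 10 passed by limma in that direction, as did 27.2% of all genes. The log2 differences ran from 1.50 to 4.43 with limma adjusted p values from 7.5e-08 to 3.3e-06. Without *acd6-1lux-1* ZT1 replicate 3 they ran from 1.70 to 4.68, and the 10 passed again. These libraries are partly those of the comparisons above.

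In *acd6-1*, 5 genes were higher at ZT13 by limma, as were 31.2% of all genes. Under median-of-ratios scaling and in DESeq2 3 were, without *ERF13* and *RRTF1*, and in edgeR 4, without *RRTF1*. *ERF6* rose by 1.35 (SE 0.32, limma adjusted p = 0.0026) and *ERF104* by 0.59 (SE 0.16, limma adjusted p = 0.0081), and both passed whichever of the 22 libraries was left out. *ERF13* (0.72), *ERF5* (0.64) and *RRTF1* (0.92, limma adjusted p = 0.098) also passed. The call of *RRTF1* remained in 7 of the 22 fits that leave out a library. *ERF13* was lost without *acd6-1* ZT1 replicate 1 or ZT13 replicate 1, and *ERF5* without the latter. *ZAT10*, *ZAT12*, *ACS6*, *ERF105* and AT4G29780 did not pass, with differences from -0.12 to 0.46.

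The morning libraries of Col-0 and *lux-1* were used to choose the genes, so their change with time is described only. Evening means were 0.957 (*ACS6*) to 4.13 times (*ERF6*) the morning means in Col-0, and 10.9 (*ZAT12*) to 73.8 times (*RRTF1*) in *lux-1*. The libraries of the 2 times did not overlap for 6 genes in Col-0 and for 10 in *lux-1*, each time with higher evening values, beside 48.9 and 35.4% of all genes in that direction.

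**Figure D3:**
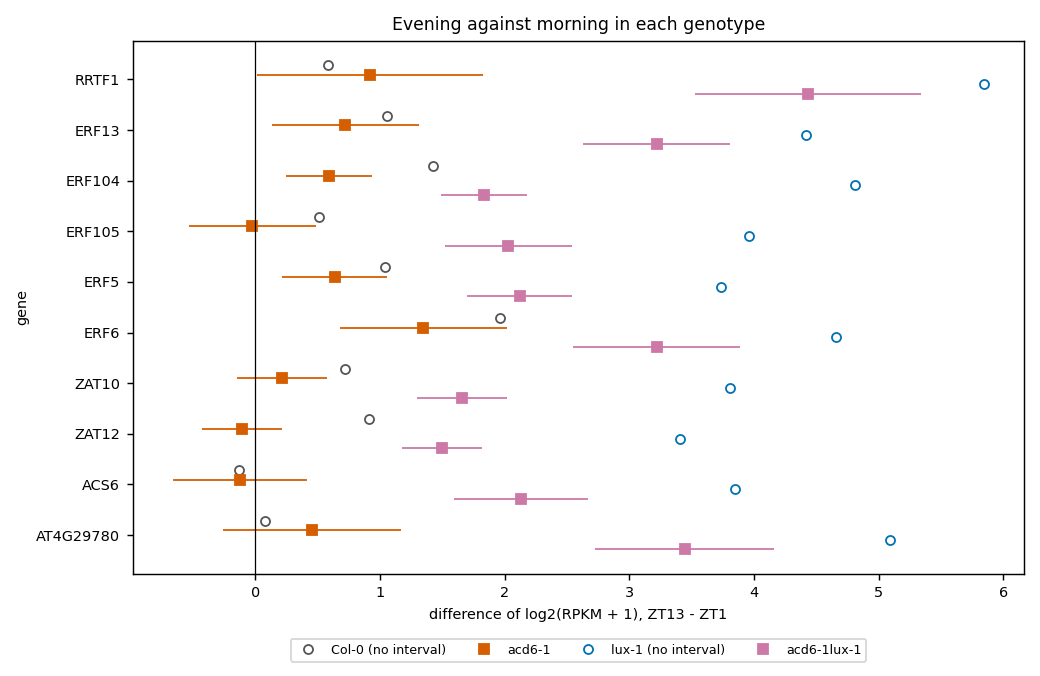
Differences of log2(RPKM + 1) between ZT13 and ZT1 per gene in the 4 genotypes. Filled squares with 95% intervals from limma are *acd6-1* and *acd6-1lux-1*, and open circles are Col-0 and *lux-1*, given as values without a test. Each gene has its highest value in *lux-1*, followed by *acd6-1lux-1*.

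The effect of *acd6-1* on the 10 genes was mixed. At ZT13, *acd6-1* against Col-0 had 6 genes higher and 2 lower by limma, while 22.3% of all genes passed higher and 26.5% lower. *RRTF1* was 3.15-fold higher (log2 1.76, SE 0.43, limma adjusted p = 0.003), AT4G29780 2.48-fold (log2 1.40, SE 0.34, limma adjusted p = 0.0028) and *ZAT10* 1.73-fold (log2 0.79, SE 0.17, limma adjusted p = 0.0011). These 3 calls held in the 22 fits that leave out a library. *ACS6* (0.68), *ERF13* (0.64) and *ZAT12* (0.46) were also higher, and *ERF5* (-0.51) and *ERF104* (-0.44) lower. *ERF6* (0.17) and *ERF105* (-0.47) did not pass.

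Single libraries decided several of these calls. Col-0 ZT13 replicate 1 had the lowest value of its group for 10 of 10 genes, and without it *ACS6* and *ERF13* no longer passed and *ERF105* passed as lower, with -0.72 (limma adjusted p = 0.019). The calls of both lower genes were lost without Col-0 ZT13 replicate 2 or replicate 3, and without *acd6-1* ZT13 replicate 2, which also ended those of *ACS6* and *ZAT12*. Without *acd6-1* ZT13 replicate 1, *ACS6*, *ERF13* and *ERF104* no longer passed and *ERF105* did, as it also did without *lux-1* ZT13 replicate 3. Median-of-ratios scaling left 0 of the lower calls.

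In the *lux-1* background at ZT13, 4 genes were higher in *acd6-1lux-1* than in *lux-1* and 1 was lower by limma, beside 19.9 and 18.1% of all genes. *ZAT10* (0.61, SE 0.17, limma adjusted p = 0.011) and *ERF5* (-0.76, SE 0.20, limma adjusted p = 0.0075) passed in each of the 22 fits that leave out a library. AT4G29780 (0.80), *ACS6* (0.58) and *ZAT12* (0.44) passed in 18, 6 and 19 of them. *RRTF1* (0.92, limma adjusted p = 0.12) did not pass. Without *lux-1* ZT13 replicate 1, or without either *acd6-1lux-1* library of ZT13, *ZAT10* alone was higher, and without *lux-1* ZT13 replicate 2, *ZAT10* and *ZAT12* were.

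The corresponding morning comparisons share libraries with the one that chose the genes and are given as values. *acd6-1* means were 92.3% (*ERF5*) to 280.0% (*ZAT12*) of Col-0, and *acd6-1lux-1* means 1.94 (*ERF5*) to 7.71 times (*ERF104*) those of *lux-1*. In the latter 10 of 10 genes were higher without overlap, as 30.0% of all genes were. Without *acd6-1lux-1* replicate 3 these means were 1.76 (*ERF5*) to 6.63 times (*ERF104*) those of *lux-1*. The summed leaf markers at ZT13 were 37971 to 42137 RPKM in Col-0, 39774 to 45870 in *lux-1*, 19436 to 22810 in *acd6-1*, and 23966 to 28893 in the double mutant. Their part in the effect of *acd6-1* was not tested.

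The 10 genes also varied together among libraries of 1 group. Over the 22 libraries the 45 pairs had Pearson correlations of log2(RPKM + 1) from 0.811 (*ERF5* with *ZAT10*) to 0.994 (*ZAT10* with *ZAT12*) and a median of 0.931. For deviations from the group means the correlations were 0.236 (*RRTF1* with *ERF104*) to 0.927 (*ACS6* with AT4G29780), median 0.651. The 22 libraries include those that chose the genes, so the correlations over the 22 follow in part from the choice. Both sets of correlations share libraries and their scaling, and are a description. The median deviation of the 10 genes was 0.39 in *acd6-1lux-1* ZT1 replicate 3 and -0.50 in Col-0 ZT13 replicate 1, where the median over all genes tested was -0.06 and 0.00. Replicate 1 had the lowest value of its group for 8, 8 and 6 genes in Col-0, *acd6-1* and *acd6-1lux-1* at ZT1. It did for 3 in *lux-1* at ZT1, for 10 in Col-0 and 8 in *lux-1* at ZT13, and for 4 in each group of 2. Numbering follows the sample titles, while the sample descriptions number the libraries of each group of 2 as 2 and 3. Replicate 3 had the highest value for 6, 7 and 10 genes in Col-0, *acd6-1* and *acd6-1lux-1* at ZT1. It did for 8 in *lux-1* at ZT13, and for 3 in *lux-1* at ZT1 and in Col-0 at ZT13. Whether replicate numbers mark a shared step was not tested.

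**Figure D4:**
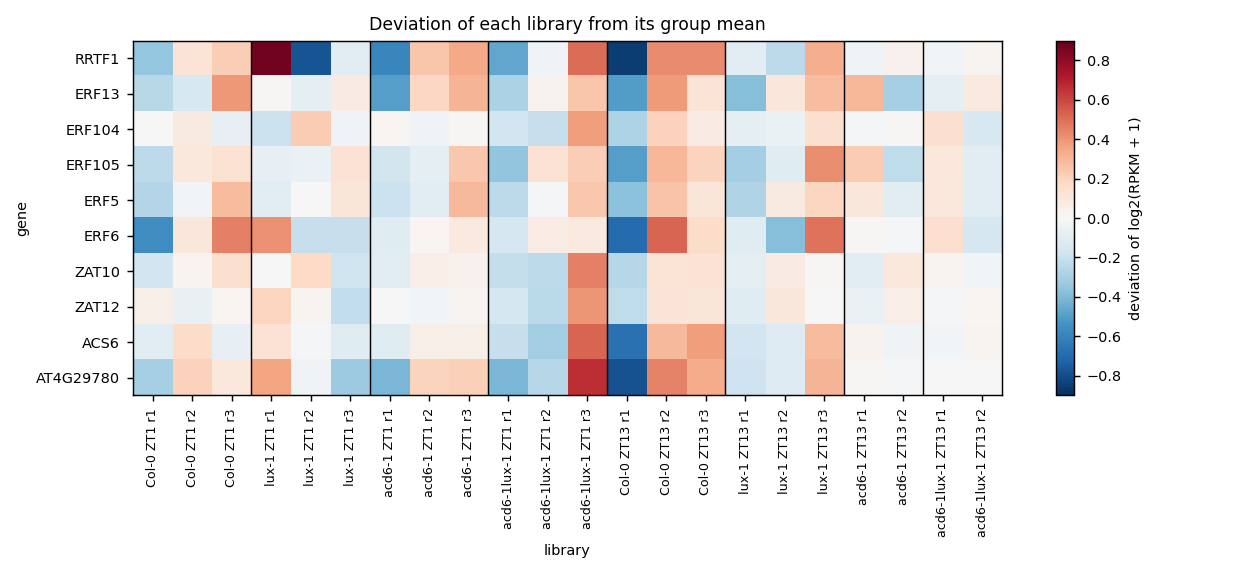
Deviation of log2(RPKM + 1) from the group mean for each gene (rows) and library (columns), in red where higher and blue where lower. Col-0 ZT13 replicate 1 is blue and *acd6-1lux-1* ZT1 replicate 3 red for 10 of 10 genes.

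The genes whose pattern over the 22 libraries was most like the mean standardized profile of the 10 were *RDUF2* (r = 0.995), a RING-type ubiquitin ligase gene, *AP2C1* (0.993), which encodes a phosphatase of MAP kinases, and *DIC2* (0.993), a mitochondrial dicarboxylate carrier gene. They were followed by AT4G27654, AT5G21960 (0.989), *CAF1A* (0.989), a mRNA deadenylase gene, *ERF4* (0.986), an ERF gene with a repression motif, and *PUP14* (0.985), a purine permease gene. In all, 46 genes outside the 10 had an r above 0.95. *RDUF2* had means at ZT1 and ZT13 of 108 and 178 RPKM in Col-0, 16.5 and 205 in *lux-1*, 217 and 239 in *acd6-1*, and 61.2 and 259 in the double mutant. Since these genes were picked for their likeness over the same libraries, their differences between groups carry no test here.

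Among relatives of the 10 genes the morning fall in *acd6-1lux-1* was uneven. Of 10 other tested ERFs of subfamily IX, 4 were lower and 3 higher than in *acd6-1* by limma, with a median of 0.07, where 22.8% of all genes passed higher. *ERF1A*, a regulator of ethylene and JA responses, was at -1.12 (SE 0.23, limma adjusted p = 0.002), whereas *ERF106* was at 1.18 (SE 0.12, limma adjusted p = 5.3e-06) and *ERF107* at 1.50 (SE 0.19, limma adjusted p = 3.8e-05). *ERF107* (AT5G61590) lies next to *ERF104* among the protein-coding genes of the annotation, and the 2 neighbors passed in opposite directions at ZT1. Of 6 other tested subfamily X genes, *ERF112* alone passed (-0.99, SE 0.23, limma adjusted p = 0.0045), and the median was -0.74. *RAP2.6* was at -1.32 (SE 0.58) and *RAP2.6L* at -0.90 (SE 0.42), with limma adjusted p values of 0.10 and 0.13.

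Of 9 other zinc-finger genes of the ZAT and AZF type, 4 were lower by limma, and the median was -1.34. The 4 include *ZAT6* (-1.71), *ZAT7* (-1.77) and *AZF2* (-1.64), with SEs of 0.18, 0.24 and 0.21 and limma adjusted p values from 7.2e-06 to 5.5e-05. *ZAT7* had a ZT1 mean of 439.7 RPKM in *acd6-1*, against 135 RPKM in the double mutant and 7.08 RPKM in *lux-1*.

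Of 9 other tested ACC synthase and ACC oxidase genes, 3 were lower, the synthase genes *ACS7* (-1.78, SE 0.26), *ACS2* (-1.40, SE 0.50) and *ACS11* (-1.12, SE 0.22), with limma adjusted p values from 0.00011 to 0.048, and the median was -0.25. Of 11 genes for ethylene receptors and signaling, 1 was lower and 2 higher, with a median of 0.22, and without *acd6-1lux-1* ZT1 replicate 3, 6 were higher. *EIN3*, which encodes the main transcription factor of the pathway, was at -0.25 (limma adjusted p = 0.026), and *EBF1* and *EBF2*, whose F-box proteins degrade it, were at 0.50 and 0.85 (limma adjusted p = 0.00081 and 0.0019). Of 10 MAP kinase cascade genes, 4 were lower, among them *MPK3* (-1.02, SE 0.15), *MPK11* (-1.28, SE 0.26) and *MEKK1* (-0.57, SE 0.13), with limma adjusted p values from 0.00011 to 0.0038, and the median was -0.13. Of the 3 *CAMTA* genes for calmodulin-binding activators tested, *CAMTA2* passed at -0.16 (limma adjusted p = 0.088), a call that was lost without *acd6-1lux-1* ZT1 replicate 3.

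The list of 19 other rapid stress genes, written with results on some of its genes known, had 17 lower in *acd6-1lux-1* at ZT1 by limma, with a median of -1.43. *SZF1*, a tandem zinc-finger gene of the salt response, was at -2.28 (SE 0.26, limma adjusted p = 1e-05), *ORA47*, an ERF gene of JA synthesis, at -2.15 (SE 0.23, limma adjusted p = 7.2e-06), and *AP2C1*, one of the genes picked for likeness above, at -2.10. In *lux-1* against Col-0 at ZT1, 16 were lower, where 4.61% of all genes passed lower. At ZT13 the 19 differences in the *acd6-1* background were -0.36 to 0.20. In the Col-0 background 1 was higher and 1 lower at ZT13, *CBF3* (1.49, limma adjusted p = 0.015) and *CBF1* (-1.95, limma adjusted p = 0.0003), which are cold response regulators named here after their values were seen.

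Wounding and touch induce many of these genes, so marker lists for both were examined. Of 13 wound and JA genes, 9 were lower in *acd6-1lux-1* at ZT1 by limma, with a median of -1.39, and 8 were without *acd6-1lux-1* ZT1 replicate 3. The 9 include *MYC2*, the main JA transcription factor, at -1.44 (SE 0.16), *LOX3*, a JA synthesis gene, at -1.92 (SE 0.24), and *JAZ1*, a JA repressor gene, at -1.39 (SE 0.19), with limma adjusted p values from 8.2e-06 to 7.4e-05. In *lux-1* against Col-0 at ZT1, given without a test, the 13 differences were -1.72 to 1.68, with a median of -0.44. At ZT13 the 13 differences were -0.33 to 0.89 in the Col-0 background and -0.61 to 0.54 in the *acd6-1* background.

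*TCH4*, a cell wall transglucosylase gene induced by touch, was 403, 458 and 336 RPKM in Col-0, 85.3, 53.1 and 57.0 in *lux-1*, 797, 939 and 918 in *acd6-1*, and 200.2, 149 and 265 in *acd6-1lux-1* at ZT1. The 4 groups did not overlap, in the order seen for *RRTF1*. *TCH2*, a calmodulin-like gene, was 336, 385 and 338 RPKM in Col-0, 90.5, 93.3 and 89.0 in *lux-1*, 352, 407 and 380.3 in *acd6-1*, and 173, 197 and 228 in *acd6-1lux-1*. Here Col-0 and *acd6-1* overlapped above the lines with *lux-1*. *TCH3*, another calmodulin-like gene, was 272, 288 and 322 RPKM in Col-0, 319, 172 and 163 in *lux-1*, 1298, 1497 and 1543 in *acd6-1*, and 1071, 712 and 1021 in *acd6-1lux-1*. Its Col-0 and *lux-1* libraries overlapped, and those of *acd6-1* lay above the double mutant.

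In *acd6-1lux-1* against *acd6-1* at ZT1 the 3 touch genes passed as lower by limma, with -2.14 (SE 0.22) for *TCH4*, -0.93 (SE 0.11) for *TCH2* and -0.65 (SE 0.19) for *TCH3*. At ZT13 their differences were between -0.03 and 0.51 over both backgrounds. The order in which the genotypes were harvested and handled is not stated, and its part in these differences was not tested.

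**Figure D5:**
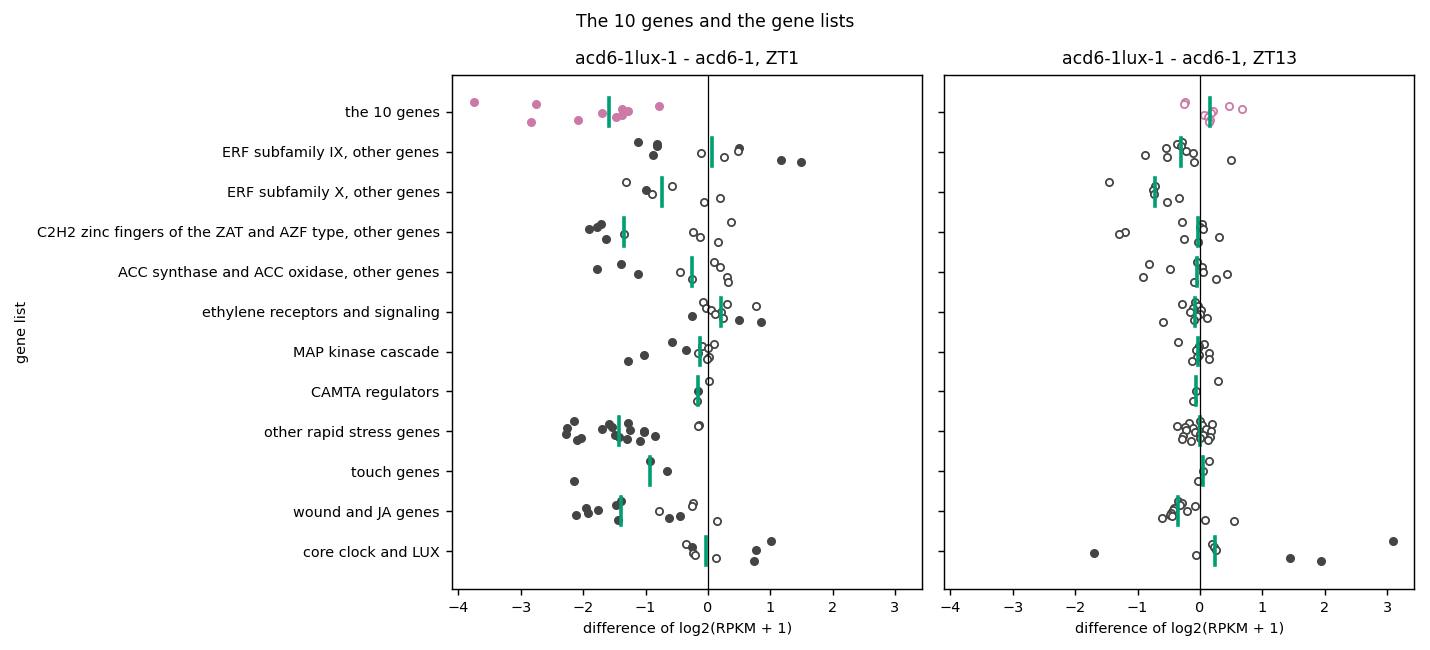
Differences of log2(RPKM + 1) of *acd6-1lux-1* against *acd6-1* at ZT1 (left) and ZT13 (right) for the 10 genes and the genes of 11 lists. Points are genes, filled where the limma adjusted p was under 0.1, and green bars are medians. The median of the 10 genes is -1.58 at ZT1 and 0.16 at ZT13, and that of the other rapid stress genes -1.43 and 0.00.

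Of 8 core clock genes, *LUX* included, 3 were higher and 1 lower in *acd6-1lux-1* than in *acd6-1* at ZT1 by limma. At that time 22.8% of all genes passed higher and 10.9% lower. At ZT13 likewise 3 were higher and 1 lower, where 1.50% of all genes passed in either direction. The 8 differences were -0.35 to 1.02 at ZT1 and -1.70 to 3.10 at ZT13. *LUX* was at 1.02 (SE 0.18), *ELF3*, another evening complex gene, at 0.77 (SE 0.12), and *GI* at 0.74 (SE 0.15) at ZT1, with limma adjusted p values from 0.00022 to 0.002. At ZT13 *LUX* was at 3.10 (SE 0.21, limma adjusted p = 1.1e-07) and *GI* at 1.95 (SE 0.18, limma adjusted p = 5.4e-06), where 0 of the 10 stress genes passed.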

How the data were processed

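TruSeq libraries from 25-day-old plants were sequenced as single reads of 51 cycles on a HiSeq. The submitters' notes name CASAVA and TAIR10 without versions. How reads were aligned and counted was not given in the sources used here. RPKM values were used as deposited by the authors, which scales counts by length and by mapped reads. Other entries of the authors' sample sheet as deposited, counts of total and mapped reads and percent mapped, were used for depth only. The table has 1 column that is no sample's, the authors' own ratio of *lux-1* to Col-0 at ZT1, and it was left out. For 100% of values a whole number of reads was recovered (tolerance 0.001), and 97.43% of the lengths this gave are multiples of 3, so they are coding lengths. A TAIR10.1 gene table matched 24867 identifiers.

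The test was run on log2(RPKM + 1) with limma 3.58.1 (R 4.3.3) with a trended prior variance, with the 22 libraries in 1 model of 8 groups and 14 residual degrees of freedom, over genes whose mean exceeded 0.3 RPKM in 1 group or more. A gene passed at a Benjamini-Hochberg adjusted p under 0.1, the false discovery rate in the paper's methods. Replicates are biological per the paper, and nothing in the labels says how many plants each holds.

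The members and the 11 lists (105 genes) were chosen with earlier results of these data known. Named genes are the 10, the 8 most alike by correlation, up to 3 per list with the smallest adjusted p in *acd6-1lux-1* against *acd6-1* at ZT1, and *LUX*. *ACS9* was not analysed here. Alternatives were pseudocount 0.1, no filter, quantile normalization, median-of-ratios scaling, a stricter filter at 1 RPKM, only the libraries compared, an adjusted p under 0.05, a replicate block by either numbering, each of the 22 libraries left out, and edgeR 4.0.16 and DESeq2 1.42.0 on recovered reads. The model was first tested on simulated data. Python 3.11.15 with pandas 2.3.3, numpy 2.4.6 and matplotlib 3.10.9 made the tables and plots.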

Additional observations from a re-analysis of the deposited data

Results flagged for a closer look

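For each of the 10 genes the effect of *lux-1* in the *acd6-1* background differed between ZT1 and ZT13 by the limma test of the difference itself. On the log2(RPKM + 1) scale the effect at ZT1 minus that at ZT13 was -3.51 for *RRTF1*, -2.50 for *ERF13*, -1.24 for *ERF104*, -2.05 for *ERF105*, -1.48 for *ERF5*, -1.87 for *ERF6*, -1.45 for *ZAT10*, -1.60 for *ZAT12*, -2.25 for *ACS6* and -2.99 for AT4G29780. The 10 values share the same 10 libraries, and those at ZT13 come from 2 libraries per group.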

How the results depend on the processing

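The 10 calls of *acd6-1lux-1* against *acd6-1* at ZT1 and of *acd6-1lux-1* at ZT13 against ZT1 held in each alternative run, and those of the change of the *lux-1* effect with time in all but 1, without *acd6-1lux-1* ZT13 replicate 1, which left 9. Values that reversed were near 0 and had not passed. Median-of-ratios scaling moved the median over all genes from 0.09 to -0.011 for *acd6-1lux-1* against *acd6-1* at ZT1 and from 0.12 to -0.0040 in *acd6-1* at ZT13 against ZT1. It left 0 genes lower in *acd6-1* against Col-0 at ZT13 and 3 higher at ZT13 in *acd6-1*. That first count was 1 by edgeR and by DESeq2, and the second 3 by DESeq2. In *acd6-1lux-1* against *lux-1* at ZT13, 2 genes were higher with no filter, with a block by description number, and at an adjusted p under 0.05. With a replicate block by the number in the titles or in the descriptions, 1 gene, *ERF5*, was higher in *lux-1* at ZT13. Over all genes tested, same-numbered libraries did not deviate together. Their correlations were from -0.54 to 0.30 by title and from -0.54 to 0.34 by description. A check over all genes cannot show whether the numbers pair the samples for the 10 genes, whose replicate ranks are given above.

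With each library left out in turn, *acd6-1* against Col-0 at ZT13 had 4 to 6 genes higher and 0 to 3 lower, *acd6-1lux-1* against *lux-1* had 1 to 5 higher, and *acd6-1* at ZT13 against ZT1 had 2 to 5 higher. Values that changed sign ranged, in *lux-1* against Col-0 at ZT13, from -0.063 to 0.46 (*ACS6*), -0.29 to 0.11 (*ERF105*), -0.25 to 0.19 (*ERF13*) and -0.18 to 0.43 (*ERF6*). In *acd6-1lux-1* against *acd6-1* at ZT13 they were -0.55 to 0.040 (*ERF13*) and -0.033 to 0.16 (*ZAT10*). *ERF6* ranged from -0.17 to 0.43 in *acd6-1* against Col-0 and from -0.0086 to 0.43 in *acd6-1lux-1* against *lux-1*, both at ZT13. *ERF105* in *acd6-1* at ZT13 against ZT1 ranged from -0.26 to 0.21 and was 0.089 with the block by title number. The evening effect in the *acd6-1* background minus that in Col-0 ranged from -0.29 to 0.23 (*ACS6*), -0.56 to 0.035 (*ERF13*), -0.25 to 0.36 (*ERF6*) and -0.075 to 0.10 (*ZAT12*), and for *ERF6* was -0.056 with median-of-ratios scaling and -0.0044 with quantile normalization. The cause of these changes was not tested. Groups of 2 or 3 libraries limit what the evening comparisons can show.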
